A study of Homo sapiens with 9 samples.

Results

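The contacts described here are those of the ANGPT2 promoter, 1 of 20 promoters that were captured as viewpoints in HCT-116 MED14-dTAG cells. ANGPT2 (ENSG00000091879.14) lies on the minus strand of chromosome 8 at chr8:6499632-6563409 (hg38), and its start site at position 6563409 sets the 0 of all distances given here. Its members are all DpnII restriction fragments of chromosome 8 within 500 kb of that start site. These are 2451 of 674856 fragments listed for the viewpoint, and 2398 of them lie from 10 to 500 kb away. Because the gene is read toward lower coordinates, upstream means higher coordinates and downstream means the ANGPT2 gene body and the sequence beyond it.

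HCT-116 cells come from an established line of human colorectal carcinoma, and the MED14-dTAG derivative used for every library carries a degradation tag on MED14, the central subunit of the Mediator complex. Capture-C was performed in 9 libraries from 3 groups: cells given DMSO (n = 3), cells given the dTAGv-1 ligand at 0.5 μM for 2 h (dTAG, n = 3), and cells given the ligand at the same dose and time together with the BET inhibitor I-BET at 1 μM for 90 min (dTAG+I-BET, n = 3). No library was treated with I-BET alone, so that the effect of the inhibitor was measured only in cells that also received the ligand. All groups share the tagged line, and these libraries hold no measurement of MED14 itself.

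ANGPT2 encodes angiopoietin-2, a secreted ligand of the TIE2 receptor that acts mainly on blood vessel endothelium and is known for its part in vessel remodeling and tumor angiogenesis. The gene lies within MCPH1, which is read in the opposite direction and encodes microcephalin, a protein of chromosome condensation and the DNA damage response. Mediator connects transcription factors at enhancers with RNA polymerase II at promoters, cohesin is the ring complex that extrudes chromatin loops, and BET proteins bind acetylated histones. Capture-C counts how often fragments are ligated to a chosen promoter fragment, as a measure of how often they are close to it in the nucleus.

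The ANGPT2 locus has a marked asymmetry of genes and cohesin sites. MCPH1 (chr8:6406592-6648508, plus strand) begins 157 kb downstream of the ANGPT2 start site and ends 85.1 kb upstream of it. AGPAT5, which encodes an acyltransferase of phospholipid synthesis, begins 145 kb upstream, XKR5 begins 272 kb upstream, and the defensin genes, which encode antimicrobial peptides, follow from DEFB1 at 315 kb to DEFA5 at 493 kb. No protein-coding gene other than MCPH1 starts on the downstream side within 500 kb. The study provides a list of cohesin (SMC1A) peaks that were weaker or stronger in this line after the dTAG ligand, and these positions were used only to place windows. Of this list, 4 lost sites lie 22.1, 30.9, 39.2 and 78.2 kb upstream of the start site, all in introns of MCPH1 (canonical transcript of GENCODE 44), and 1 gained site lies at 85.8 kb, just past the 3′ end of MCPH1. No listed site lies downstream from 10 to 500 kb.

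The viewpoint yielded 14688 to 38429 interactions on chromosome 8 per library, of which 4628 to 15479 were 10 to 500 kb from the start site. The deposited signal of a library sums to 929153 to 941871 over chromosome 8, so that it gives a fragment's share of the contacts and not their absolute number. A larger share at one place lowers the share elsewhere. The library of dTAG replicate 3 stood apart: it held the fewest interactions, and 31.5% of them (95% Wilson interval 30.8 to 32.3%, counting error only) lay from 10 to 500 kb, against 36.8% (DMSO replicate 3) to 42.0% in the other 8 libraries. Its share from 10 to 500 kb was the lowest at the other viewpoints too, such as MYC (29.0%) and DCBLD2 (33.9%). At DCBLD2 it held more interactions (29600) than dTAG replicate 1 (26621), so the low share was not confined to a low depth. Its signal was accordingly low on both sides of the promoter, and results that change without it are given with their values below. Interactions with other chromosomes made up 43.0 to 47.7% of all, and their median of 45.8% was the highest of the 20 viewpoints (lowest 24.4%).

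In DMSO-treated cells, the contacts of the ANGPT2 promoter were skewed to the upstream side. From 10 to 50 kb, the signal per kb upstream was 2315, 2161 and 1742 in replicates 1, 2 and 3, and downstream, within the ANGPT2 gene, it was 1285, 1212 and 1214. All upstream values lay above all downstream values. The same held from 50 to 100 kb, where the upstream signal was 1021, 1108 and 942 per kb and the downstream signal was 545, 535 and 546. Such a skew was common among the 20 viewpoints. The mean DMSO ratio of upstream to downstream signal from 10 to 100 kb was 1.75 at ANGPT2, the 6th from the highest. In order, the ratios fell from 2.07 at HMGA2 to 1.05 at SPRY4 in 15th place. They were below 1 from DDIT4 (0.90) in 16th place to PCDH7 (0.52) in 20th place.

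The 3 highest 10-kb bins on each side were those nearest to the promoter. Upstream they had a mean signal per kb of 3211 ± 396 at 10 to 20 kb, 2594 ± 388 at 20 to 30 kb and 1474 ± 341 at 30 to 40 kb (SD, n = 3). The downstream bins at the same distances had 2056 ± 47.5, 1389 ± 140.0 and 896 ± 73.5, respectively. The upstream bins are intronic in MCPH1, and the bins from 20 to 40 kb hold the first 3 lost cohesin sites. The 3 strongest single fragments beyond 10 kb lay side by side in the same MCPH1 intron, 10.2 to 12.2 kb upstream. The strongest of them, a fragment of 1471 bp at chr8:6573925-6575395, had 92, 122 and 82 interactions in the DMSO libraries. It overlaps a short antisense lncRNA gene (ENSG00000288076) that lies at 9.2 to 12.8 kb.

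Set against the other promoters, the signal of ANGPT2 was high near the promoter on the upstream side and mostly low beyond 200 kb on both sides. The typical value at each distance was taken as the median of 40 DMSO bin means, 1 on each side of each of the 20 viewpoints. All 9 ANGPT2 bins from 10 to 100 kb upstream were above it (median 1.41-fold), whereas 2 of 9 downstream bins were (median 0.858-fold). The bins furthest above typical within 100 kb upstream were those at 80 to 90 kb (2.23-fold) and 70 to 80 kb (2.00-fold), at the 3′ end of MCPH1, where the lost site at 78.2 kb and the gained site at 85.8 kb lie; these bins were picked after their values were seen. Beyond 200 kb, the median fell to 0.414-fold upstream and 0.349-fold downstream, with 5 of 30 upstream bins and none of the 30 downstream bins above typical. The 5 upstream bins were those from 200 to 250 kb, from the end of AGPAT5 to the 3′ end of XKR5, at 1.24- to 1.73-fold.

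**Figure D1:**
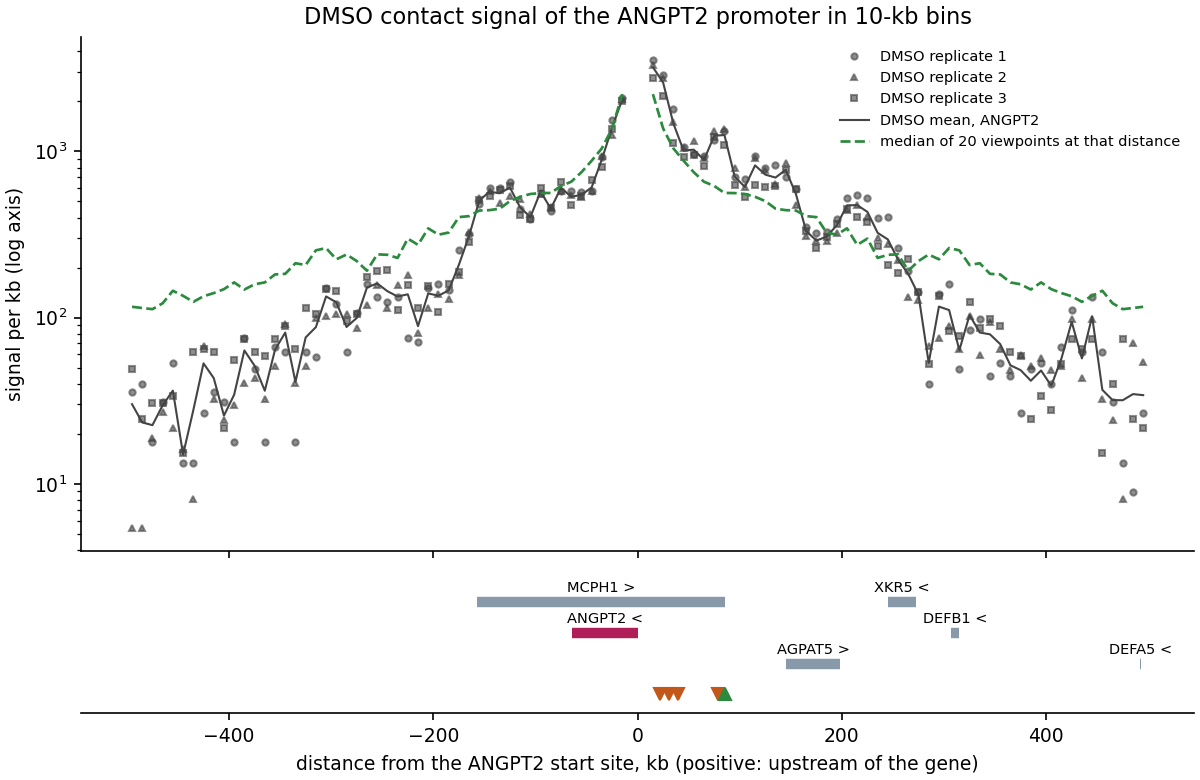
Contact signal of the ANGPT2 promoter in DMSO-treated cells in 10-kb bins (log axis, signal per kb) against distance from the start site in kb. Points are the 3 libraries, the solid line is their mean and the dashed line is the median of the 20 viewpoints at that distance, with genes (arrow gives the strand), lost (orange) and gained (green) SMC1A sites below. The signal lies above the dashed line at all 9 bins from 10 to 100 kb upstream and below it at all 30 bins beyond 200 kb downstream.

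Contacts with other promoters were weaker. The AGPAT5 promoter (5 kb on each side of its start) had 730.4, 874 and 805 per kb in DMSO, which was more than the MCPH1 promoter on the other side with 486, 538 and 524, at a similar distance. The 7 defensin promoters had means of 34.9 to 68.7 per kb, from 5 to 28 interactions per library across all 9 libraries, so that their differences rest on few counts. DEFA1, DEFA1B and DEFA3 are near-identical copies, and how reads that match several of them were counted is not given in the sources used here.

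The 3 viewpoints with the DMSO profile most like that of ANGPT2, over 98 bins turned to run along transcription, were ITPRID2 (Pearson r = 0.91), SPRY4 (r = 0.91) and KRR1 (r = 0.88). This describes likeness of profiles across bins, which share their libraries and a common fall with distance.

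To compare the groups independently of how a library was scaled, the signal from 10 to 100 kb upstream was divided by that from 10 to 100 kb downstream within each library. The balance of ANGPT2 contacts moved away from the upstream side after the dTAG ligand, and it was at a like value when I-BET was added. The ratio was 1.83, 1.89 and 1.54 in the DMSO libraries (mean 1.75 ± 0.19, SD, n = 3). It was 1.37, 1.49 and 1.46 with dTAG (1.44 ± 0.06, n = 3) and 1.36, 1.42 and 1.40 with dTAG+I-BET (1.39 ± 0.03, n = 3). Every treated library lay below every DMSO library, although DMSO replicate 3 (1.54) was close to the highest dTAG library (1.49). From 10 to 50 kb only, the ratio of DMSO replicate 3 (1.43) lay below dTAG replicates 1 and 2 (1.44 and 1.47), so that these groups overlapped. Groups that did not overlap were frequent in this measure, in 70% of the 20 viewpoints for dTAG and 80% for dTAG+I-BET.

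The ratio fell by 0.28 on the log2 scale in dTAG against DMSO (SE 0.08, 95% interval -0.45 to -0.10; limma across 20 viewpoints, adjusted p = 0.0108) and by 0.32 in dTAG+I-BET against DMSO (SE 0.08, -0.50 to -0.15, adjusted p = 0.00351). Between dTAG+I-BET and dTAG the log2 difference was -0.05 (-0.22 to 0.13, adjusted p = 0.819), and these groups overlapped. With 3 libraries against 3, an exact two-sided permutation test cannot go below 0.1, and it gave 0.1 for both comparisons with DMSO. These comparisons share the DMSO libraries and are not independent of each other. Under all 12 alternatives the adjusted p remained between 0.000339 and 0.0499 for dTAG and between 8.27e-05 and 0.0174 for dTAG+I-BET, the highest values being those without DMSO replicate 1 and from 10 to 200 kb, respectively.

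A lower ratio was common among the 20 viewpoints. It passed the threshold in 11 of 20 viewpoints for dTAG (55%, all lower) and in 14 of 20 for dTAG+I-BET (70%; 13, or 65%, as lower), and in 0 of 20 (0%) between the treated groups, where the groups of 3 viewpoints (15%) did not overlap. The change at ANGPT2 ranked 9th from the lowest in both comparisons with DMSO, next to a median of -0.21 for dTAG and -0.31 for dTAG+I-BET over all viewpoints.

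**Figure D2:**
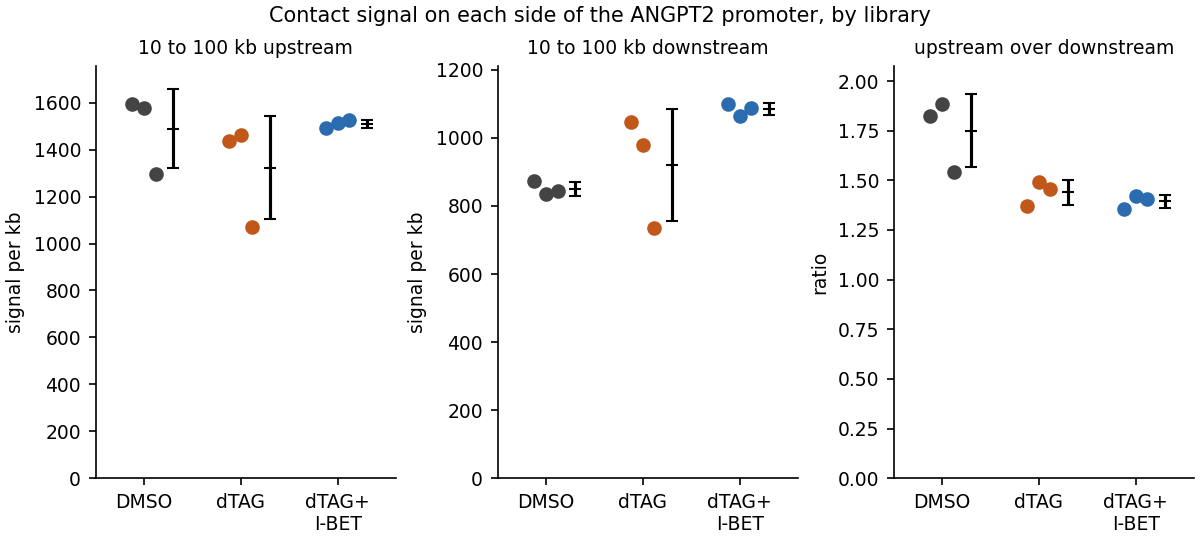
Signal per kb from 10 to 100 kb upstream (left) and downstream (middle) of the ANGPT2 start site and their ratio (right), by library; bars give mean and SD of 3 libraries, and axes start at 0. The DMSO ratios lie from 1.54 to 1.89, above all 6 treated libraries (1.36 to 1.49), and the downstream signal of the dTAG+I-BET libraries (1066 to 1101) lies above that of DMSO (836 to 874).

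**Figure D3:**
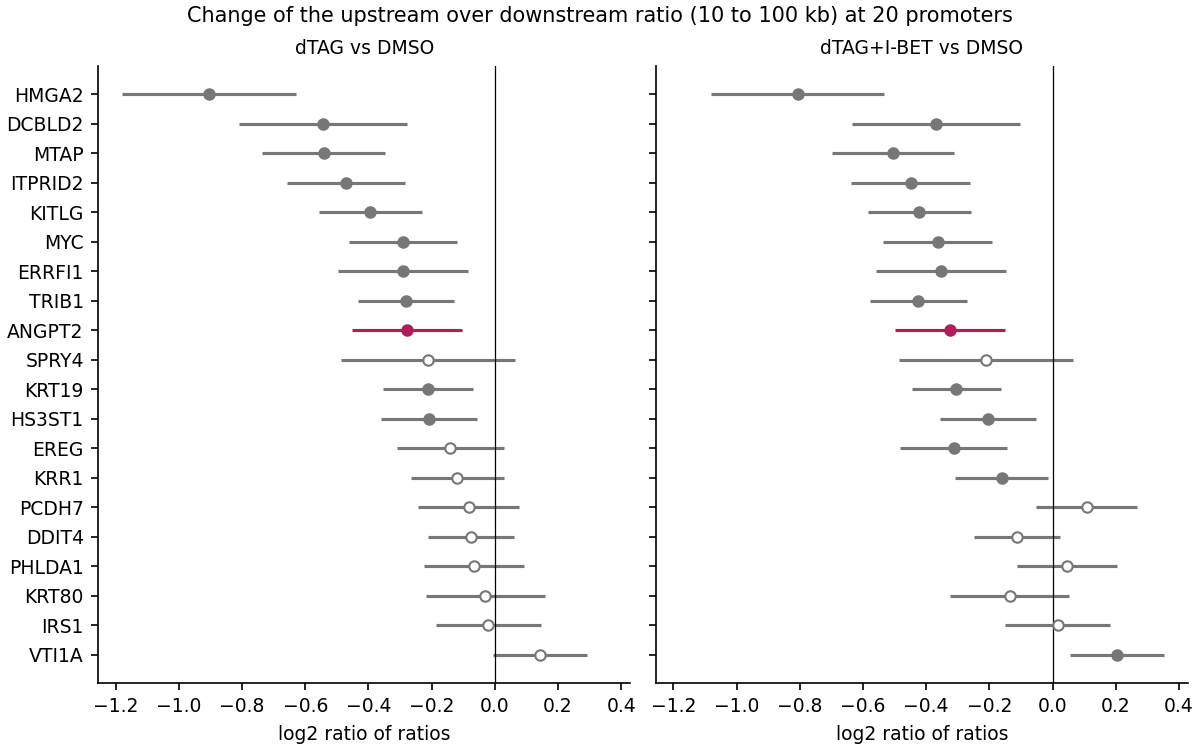
Log2 change of the upstream over downstream ratio at 20 promoters, with 95% intervals from limma; filled points have an adjusted p under 0.05. ANGPT2 (red), at -0.28 for dTAG and -0.32 for dTAG+I-BET, lies in the middle of the order.

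The sides behind the ratio moved differently with the treatments. The upstream signal from 10 to 100 kb was 1596, 1576 and 1298 per kb in DMSO, 1436, 1463 and 1071 with dTAG, and 1494, 1513 and 1528 with dTAG+I-BET. These groups overlapped. The downstream signal was 874, 836 and 843 in DMSO and 1048, 979.8 and 736 with dTAG, where replicate 3 lay below DMSO and the other libraries above it. With dTAG+I-BET it was 1101, 1066 and 1088, above all DMSO libraries. Since the signal is a share, a lower upstream share and a higher downstream share cannot be separated fully from one another here.

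In 10-kb bins from 10 to 500 kb, 0 of 98 ANGPT2 bins passed an adjusted p of 0.05 in dTAG against DMSO (limma over all 1960 bins of the 20 viewpoints, of which 1.58% passed; edgeR also called 0, against 2.7% of all bins), and 11 had an unadjusted p under 0.05 (13.3% of all bins). Without dTAG replicate 3, 2 bins passed as higher, those at 80 to 90 kb (log2 0.59, adjusted p = 0.00687) and 70 to 80 kb (log2 0.49, adjusted p = 0.0228) downstream. The share of the bins of all viewpoints that passed without that library was not counted. The bins with the lowest p were 290 to 300 kb and 300 to 310 kb downstream, beyond MCPH1, with log2 ratios of -0.62 (adjusted p = 0.237) and -0.61 (adjusted p = 0.243), and 460 to 470 kb upstream, among the defensin genes, with 0.85 (adjusted p = 0.291). These bins held 7 to 48 interactions per library. From 10 to 100 kb, 7 of 9 downstream bins had a log2 ratio above 0 and 8 of 9 upstream bins one below 0, while over all 98 bins 40 were above and 58 below 0 (39.8% and 60.2% of the bins of all viewpoints). The shares from 10 to 100 kb on each side were not counted over all viewpoints.

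In dTAG+I-BET against DMSO, 2 of 98 bins (2.04%) passed by limma, both with a larger share of contacts. This is below the 4.9% of all 1960 bins that passed (3.47% as higher). Both bins lay downstream of the ANGPT2 promoter, and both were called by edgeR as well (5.15% of all bins). The bin from 40 to 50 kb downstream (chr8:6513409-6523408) holds exons 4 to 7 of 9 of ANGPT2 and lies in an intron of MCPH1. Its signal per kb was 575, 579 and 669 in DMSO, 775, 825 and 691 with dTAG, and 1027, 871 and 906 with dTAG+I-BET, from 108 to 341 interactions. The dTAG libraries lay between the other groups, with no overlap. Of all 1960 bins, 6.28% had dTAG fully above DMSO and 10.7% had dTAG+I-BET fully above dTAG, and the share with both was not counted. The log2 ratio of dTAG+I-BET to DMSO was 0.62 (SE 0.15, adjusted p = 0.0258), and that of dTAG to DMSO was 0.33.

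The second bin, from 80 to 90 kb downstream (chr8:6473409-6483408), lies beyond the 3′ end of ANGPT2 and holds exons 10 and 11 of 14 of MCPH1. Its signal per kb was 437, 463 and 459 in DMSO, 709, 654 and 454 with dTAG, and 740, 735 and 696 with dTAG+I-BET, from 71 to 270 interactions. With dTAG, replicates 1 and 2 resembled the dTAG+I-BET libraries and replicate 3 resembled DMSO. The log2 ratio was 0.67 in dTAG+I-BET against DMSO (SE 0.17, adjusted p = 0.0260). In dTAG against DMSO it was 0.39 and did not pass, but it passed without dTAG replicate 3 (0.59, adjusted p = 0.00687) and with library totals set equal from 10 to 1000 kb (0.45, adjusted p = 0.0387). Both calls were lost (0 bins) when DMSO replicate 1, DMSO replicate 2 or any 1 dTAG+I-BET library was omitted. Without dTAG replicate 3, 6 bins passed in dTAG+I-BET against DMSO, all downstream and higher. That library is in neither of these groups and enters only the shared estimate of the spread. The size of the change in the 2 bins in dTAG+I-BET against DMSO stayed between 0.52 and 0.70 under all alternatives that kept 10-kb bins. With equal library totals, 3 bins passed in this comparison, these 2 and the upstream bin at 80 to 90 kb, which was lower (log2 -0.41, adjusted p = 0.0277) and holds the gained SMC1A site. The share of the bins of all viewpoints that passed was not counted without dTAG replicate 3 or with equal totals.

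The neighbors of these bins shared the direction. All 9 downstream bins from 10 to 100 kb had dTAG+I-BET libraries above all DMSO libraries, with log2 ratios of 0.20 to 0.67, and none of the 9 upstream bins had groups apart, with log2 ratios of -0.31 to 0.23. Over all bins of the 20 viewpoints, on both sides from 10 to 500 kb, dTAG+I-BET lay fully above DMSO in 15.1% and fully below in 11.2%. The share among downstream bins from 10 to 100 kb was not counted. The ratio of upstream to downstream signal was lower with dTAG+I-BET than with DMSO at 16 of 20 viewpoints, so such a shift was not particular to ANGPT2. From 200 to 500 kb downstream, beyond MCPH1, 22 of 30 ANGPT2 bins had a log2 ratio below 0 (median -0.33). Of the bins of all viewpoints, on both sides and at all distances from 10 to 500 kb, 47.8% did. The share at the same side and distance was not counted. The third bin by p in this comparison, at 460 to 470 kb downstream, had 7, 10 and 10 interactions in DMSO, 7, 9 and 8 with dTAG and 3, 1 and 2 with dTAG+I-BET, but did not pass (adjusted p = 0.107).

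Between dTAG+I-BET and dTAG, 0 of 98 ANGPT2 bins passed by limma or edgeR (0% of all 1960 bins), and 7 had an unadjusted p under 0.05 (6.22% of all). The lowest p belonged to the bin at 460 to 470 kb downstream, the bin at 50 to 60 kb upstream, which holds exon 13 of MCPH1 and the 3′ end of the antisense lncRNA MCPH1-AS1, and the bin at 470 to 480 kb downstream, all with an adjusted p of 0.712. In the bin at 50 to 60 kb the signal was 956, 1050.5 and 639.8 per kb with dTAG and 1236, 1229 and 1112 with dTAG+I-BET, which did not overlap, as was so in 10.7% of all bins in this direction, with dTAG replicate 3 far lowest.

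**Figure D4:**
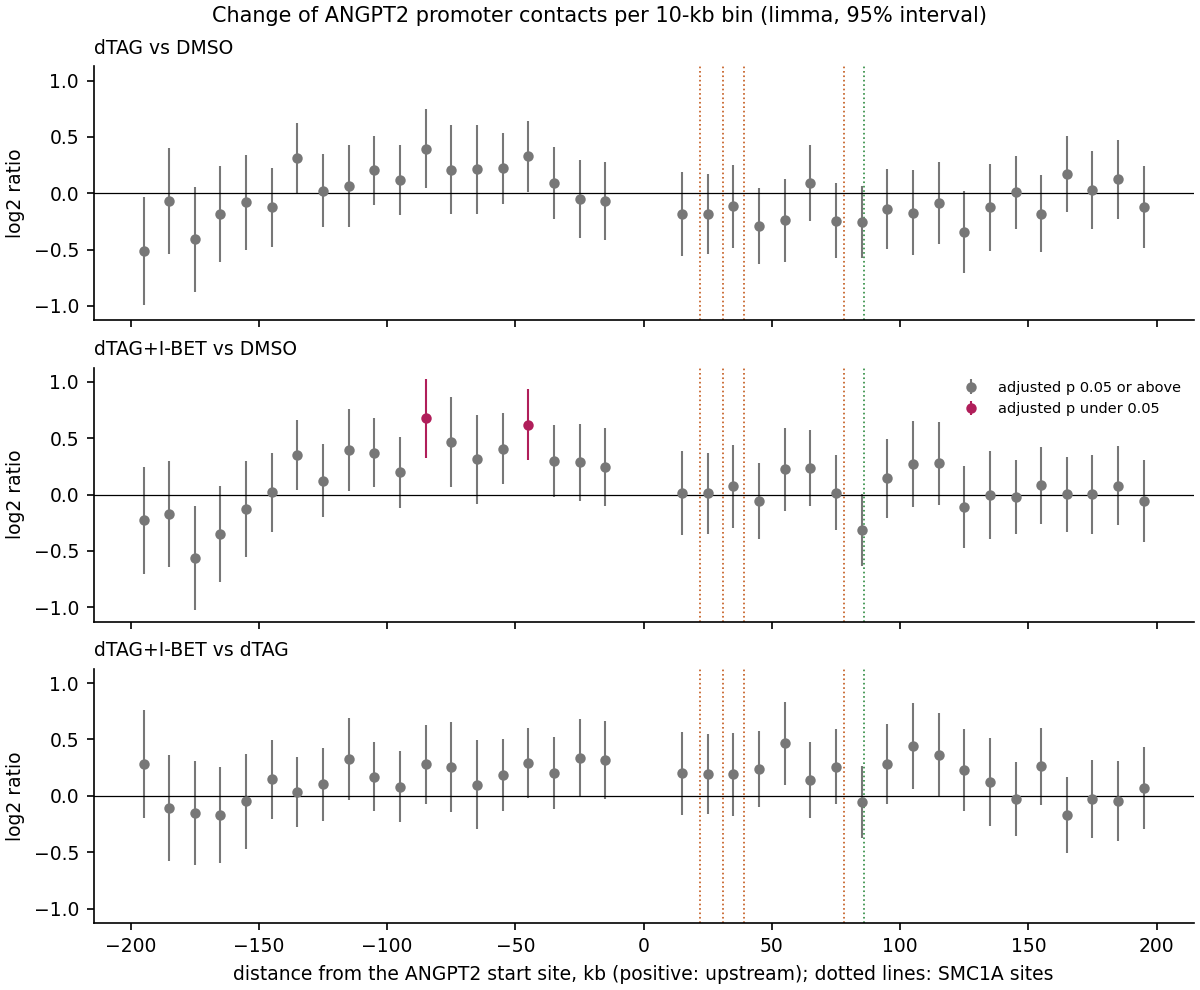
Log2 ratio of signal per 10-kb bin within 200 kb of the ANGPT2 start site in the 3 comparisons, with 95% intervals from limma; red points have an adjusted p under 0.05 and dotted lines mark SMC1A sites (orange lost, green gained). The 2 red points, at 80 to 90 kb (0.67) and 40 to 50 kb (0.62) downstream, stand in the middle panel, dTAG+I-BET against DMSO, where all 9 downstream bins from 10 to 100 kb lie above 0.

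The cohesin sites on the upstream side were examined as windows of 5 kb on each side of a site. Together, the windows around the 4 lost sites (37.9 kb) had a signal per kb of 1952, 1890.2 and 1481 in DMSO, 1675, 1688 and 1284 with dTAG, and 1728, 1658 and 1750 with dTAG+I-BET, from 760 to 2646 interactions. The groups overlapped, and no difference passed. The log2 ratio was -0.20 in dTAG against DMSO (95% interval -0.49 to 0.09, adjusted p = 0.497), -0.04 in dTAG+I-BET against DMSO (-0.33 to 0.25, adjusted p = 0.924) and 0.16 in dTAG+I-BET against dTAG (-0.14 to 0.45, adjusted p = 0.717). The intervals leave room for a reduction of up to 0.49 with dTAG. Among the 19 viewpoints with such windows, the value for dTAG against DMSO ranked 9th from the lowest (median -0.19). That for dTAG+I-BET against DMSO ranked 13th (median -0.13).

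Among the single lost sites, the window at 78.2 kb had the lowest log2 ratio with dTAG. Its signal per kb was 1319, 1369 and 1162 in DMSO, 1055, 1285 and 947 with dTAG, and 1113, 1125 and 1082 with dTAG+I-BET. The dTAG+I-BET libraries were all below DMSO, as in 16.1% of all regions, and the dTAG libraries overlapped with it. The log2 ratios of -0.24 and -0.21 against DMSO did not pass (adjusted p = 0.395 and 0.368). The windows at 22.1, 30.9 and 39.2 kb had log2 ratios of -0.21, -0.17 and -0.13 with dTAG and between -0.03 and 0.00 with dTAG+I-BET, with adjusted p of 0.497 or higher.

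The window around the gained SMC1A site at 85.8 kb, which overlaps that of the last lost site, had log2 ratios below 0 in both treated groups. Its signal per kb was 1173, 1215 and 934 in DMSO, 859.6, 1017 and 843 with dTAG, and 866, 985 and 844 with dTAG+I-BET. DMSO replicate 3 lay within the treated range and the other DMSO libraries above it. The log2 ratios of -0.28 and -0.30 did not pass over all 672 regions (adjusted p = 0.293 and 0.196).

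The mirror images of these windows, at equal distances downstream where no listed cohesin site lies, had 1042, 968 and 987 per kb in DMSO, 1189, 1141 and 836 with dTAG, and 1249, 1238 and 1297 with dTAG+I-BET. All dTAG+I-BET libraries lay above DMSO, as in 19.6% of all regions, and in dTAG replicates 1 and 2 lay above and replicate 3 below. The log2 ratio against DMSO was 0.06 with dTAG (adjusted p = 0.814) and 0.34 with dTAG+I-BET (adjusted p = 0.131).

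**Figure D5:**
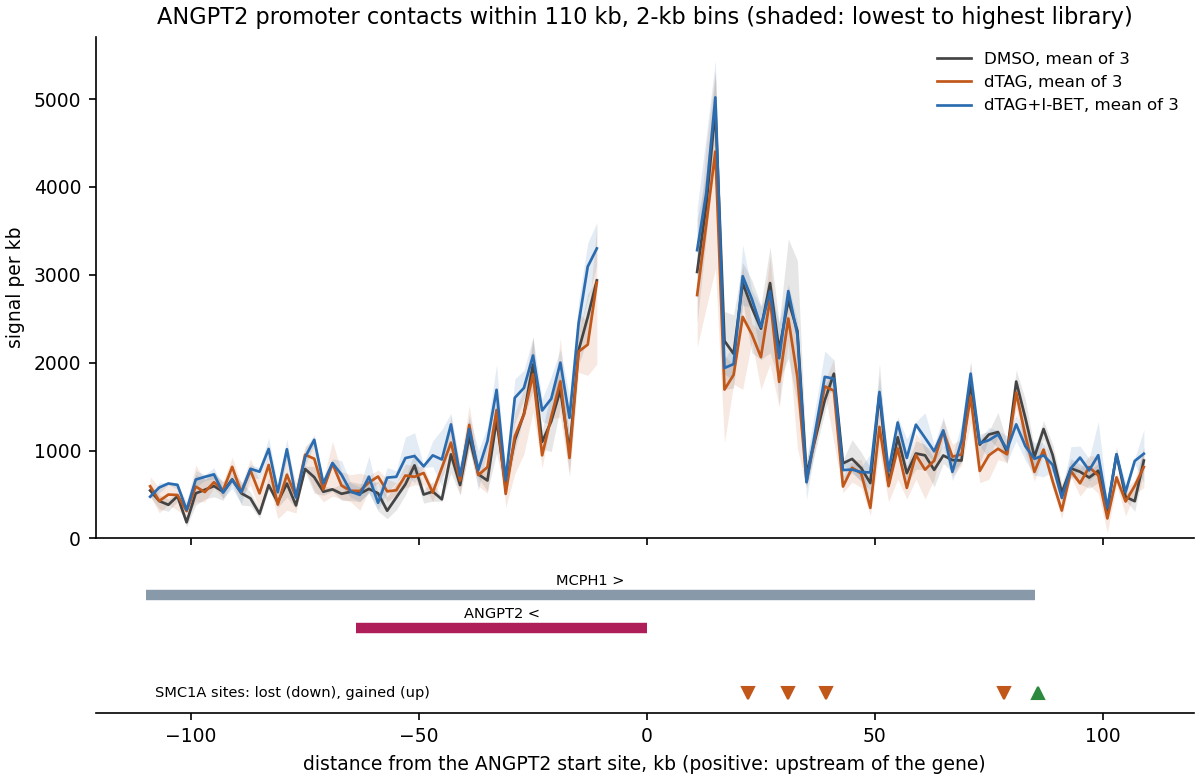
Signal per kb of the ANGPT2 promoter in 2-kb bins from 10 to 110 kb on each side of the start site; lines are means of 3 libraries, shading spans the lowest to the highest library, and genes and SMC1A sites are drawn below. The groups overlap around the lost sites at 22.1 to 39.2 kb, and the dTAG+I-BET line runs above DMSO over much of the ANGPT2 gene on the left.

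The ANGPT2 gene body from 10 kb to its 3′ end (53.8 kb) had a signal per kb of 1104, 1037 and 1034 in DMSO. It was 1224, 1173 and 907 with dTAG and 1345, 1282 and 1344 with dTAG+I-BET. Replicate 3 was again the dTAG library below DMSO. The log2 ratios against DMSO were 0.05 with dTAG (adjusted p = 0.870) and 0.32 with dTAG+I-BET (95% interval 0.06 to 0.58, adjusted p = 0.116). Among the 14 viewpoints with such a gene-body region, each of these values ranked 8th from the lowest. The medians over those viewpoints were 0.01 with dTAG and 0.29 with dTAG+I-BET. In the band from 50 to 100 kb downstream, the signal per kb was 545, 535 and 546 in DMSO, 750.0, 686 and 499 with dTAG, and 758, 722 and 681 with dTAG+I-BET. Its log2 ratios against DMSO were 0.23 (adjusted p = 0.436) and 0.41 (0.11 to 0.70, adjusted p = 0.085). Without dTAG replicate 3 the value for dTAG was 0.40 and passed (adjusted p = 0.00271).

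The downstream part of MCPH1 as a whole, which contains both of these stretches, had 743, 713 and 713 per kb in DMSO, 877, 824 and 628 with dTAG, and 907, 883 and 903 with dTAG+I-BET. Its log2 ratios were 0.09 (adjusted p = 0.707) and 0.31 (adjusted p = 0.133). The upstream part of MCPH1 had log2 ratios of -0.17 (adjusted p = 0.514) and 0.03 (adjusted p = 0.945). Further downstream, at 200 to 500 kb, the signal per kb was 67.3, 67.7 and 89.4 in DMSO, 65.6, 58.4 and 62.7 with dTAG, and 61.4, 60.9 and 59.6 with dTAG+I-BET. All treated libraries lay below DMSO, as in 14.9% of all regions for dTAG, with log2 ratios of -0.25 (adjusted p = 0.339) and -0.29 (adjusted p = 0.170). These values rested in part on DMSO replicate 3, without which they were -0.12 and -0.15.

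Over all 32 ANGPT2 regions, 0 passed in any of the 3 comparisons by limma or by edgeR. Of the 672 regions of the 20 viewpoints, limma called 4.61% in dTAG against DMSO, 8.33% in dTAG+I-BET against DMSO and 0% between the treated groups, and edgeR called 5.06%, 9.23% and 0%. At an unadjusted p under 0.05, 0, 8 and 2 ANGPT2 regions passed by limma, respectively, against 17.6%, 24.1% and 7.59% of all regions. The outcome depended on dTAG replicate 3 and on the scaling. In dTAG+I-BET against DMSO, omitting dTAG replicate 3 changed only the shared estimate of the spread and left the log2 ratios as they were. Without that library 3 regions passed with dTAG and 6 with dTAG+I-BET, among them, in both comparisons, the mirrored windows (log2 0.22 and 0.34), the downstream part of MCPH1 (0.23 and 0.31) and the band from 50 to 100 kb downstream (0.40 and 0.41). With every library set to an equal total from 10 to 1000 kb, 1 region passed with dTAG (50 to 100 kb downstream, 0.29) and 7 with dTAG+I-BET, of which 5 were higher, all downstream, and 2 lower, namely the windows of the lost site at 78.2 kb (-0.31) and the gained site at 85.8 kb (-0.40). The 5 higher regions overlap, since the downstream part of MCPH1 contains the others, and the 2 lower windows overlap each other. These counts are therefore not counts of separate changes. The share of all 672 regions that passed was not counted for either of these alternatives. That scaling moved the median ANGPT2 bin by -0.10 in dTAG+I-BET against DMSO, by 0.06 in dTAG against DMSO and by -0.16 in dTAG+I-BET against dTAG.

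No difference passed at the other promoters within 500 kb. The AGPAT5 promoter had 699, 910.0 and 787 per kb with dTAG and 709, 739 and 897 with dTAG+I-BET, overlapping the DMSO libraries, with log2 ratios of -0.01 (95% interval -0.31 to 0.29) and -0.04 (-0.34 to 0.26). The MCPH1 promoter had 633, 515 and 301 with dTAG and 479, 503 and 416 with dTAG+I-BET, with log2 ratios of -0.16 (-0.62 to 0.30) and -0.15 (-0.61 to 0.31). The XKR5 promoter had 187, 103 and 157 in DMSO, 101, 160 and 51.2 with dTAG, and 135, 154 and 154 with dTAG+I-BET. Its log2 ratios were -0.62 in dTAG against DMSO (-1.35 to 0.12, adjusted p = 0.400) and 0.64 in dTAG+I-BET against dTAG (-0.09 to 1.37, adjusted p = 0.641), with 8 interactions in dTAG replicate 3. At the DEFB1 promoter, all dTAG libraries (50.7, 46.0 and 57.6) lay below DMSO (57.9, 64.9 and 83.2), as in 14.9% of all regions. The log2 ratio was -0.40 (adjusted p = 0.485) from 9 to 27 interactions. The nearest libraries were almost equal, dTAG replicate 3 (57.6, 9 interactions) and DMSO replicate 1 (57.9, 13 interactions). The largest ratio of any promoter, 1.12 at the DEFA3 promoter in dTAG+I-BET against DMSO (adjusted p = 0.143), rested on 5 to 23 interactions per library.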

How the data were processed

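Capture-C interactions of the ANGPT2 promoter were analyzed in 9 libraries, 3 per group. The methods call the replicates biologically independent, while the column names carry the unexplained letters TR. The limma p-values set a difference against the spread between libraries within groups, pooled over the 3 groups. That spread is estimated in part from all bins, regions or viewpoints of the fit. The authors digested chromatin with DpnII and counted interactions per fragment with CapCruncher on hg38, and the submitters' processing notes name bcl2fastq 2.17. The deposited signal is scaled per viewpoint and library by the authors. All values were whole multiples of 1 interaction (tolerance 0.01), which is worth 24.2 to 64.0 units, so that interactions could be recovered. Fragments were assigned by midpoint, the viewpoint fragment is not listed, and the innermost 10 kb were left out.

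Signal per kb was summed over 10-kb bins and regions, and log2(signal + 1) was tested with limma (3.58.1) in 1 fit of the 3 groups over all 20 viewpoints, for bins and regions with a mean of at least 2 per kb, with Benjamini-Hochberg adjustment and a threshold of 0.05. The added 1 draws the values of low bins closer together. The log2 ratio is a difference of mean logs, so that in low bins it can also exceed the ratio of group means. At 470 to 480 kb downstream it was -1.95 in dTAG+I-BET against DMSO, where the mean signal was 60.6% lower. Intervals are 95%. edgeR (4.0.16) on recovered interactions, equal totals from 10 to 1000 kb, other pseudocounts (0.5 and 5), bins (5 and 25 kb), filters (10 per kb or none), windows (2.5 and 10 kb) and ratio distances (to 50 or 200 kb), fits of 2 groups, omission of each library and a replicate block were alternatives. The scripts were tested on simulated data. Regions named were all those of fixed kinds; bins named were the called ones, the 3 with lowest p per comparison and the 3 highest in DMSO per side, with exceptions stated. The locus, lists and rules were chosen with earlier results of these data known. Libraries of a group differed by more than sampling noise over the ANGPT2 bins (chi-square per bin 1.31 to 2.91), so that none was merged. Pairs of libraries from different groups had a similar range, 1.35 to 2.98. No sequence is printed.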

Additional observations from a re-analysis of the deposited data

How the results depend on the processing

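The fall of the ANGPT2 upstream over downstream ratio kept its direction and passed in all 12 alternatives in both comparisons with DMSO (log2 -0.37 to -0.21 for dTAG and -0.41 to -0.23 for dTAG+I-BET), and the log2 ratio of dTAG+I-BET to dTAG stayed between -0.095 and -0.0092 without passing. Counts of bins and regions were less stable. Main counts of called ANGPT2 bins were 0 for dTAG and 2 for dTAG+I-BET against DMSO. Omitting 1 library gave 0 to 2 and 0 to 6 bins, respectively, the highest counts being those without dTAG replicate 3, equal totals gave 1 and 3, and for dTAG+I-BET a fit of 2 groups gave 4, 5-kb bins gave 1 and 25-kb bins gave 0. Main counts of called regions were 0. Omitting 1 library gave 0 to 3 for dTAG and 0 to 6 for dTAG+I-BET, equal totals gave 1 and 7, a fit of 2 groups gave 6 for dTAG+I-BET, and the replicate block gave 1 for dTAG+I-BET (50 to 100 kb downstream, log2 0.41, adjusted p = 0.0386). Without DMSO replicate 1 the single region called was the DEFA3 promoter. No ANGPT2 bin or region was called between dTAG+I-BET and dTAG in any alternative run. The cause of these differences was not tested. The share of all bins or regions that passed was not counted for the alternative counts given here.

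The lost windows passed in no alternative. Their log2 ratio ranged from -0.32 to -0.067 for dTAG when 1 library was omitted and turned sign for dTAG+I-BET against DMSO without DMSO replicate 1 or 2 (omitting 1 library, -0.17 to 0.032) and with windows of 2.5 kb (0.010), and for dTAG+I-BET against dTAG with equal totals (-0.0052; omitting 1 library, 0.025 to 0.22). Other values turned sign without passing at the turned sign. For dTAG against DMSO, omitting 1 library gave -0.031 to 0.22 for the mirrored windows, -0.037 to 0.18 for the ANGPT2 gene, -0.0068 to 0.23 for MCPH1 downstream (of which the mirrored windows and MCPH1 downstream passed at their highest values, without dTAG replicate 3) and -0.069 to 0.16 for 10 to 50 kb downstream. For dTAG+I-BET against DMSO, equal totals gave -0.033 for the span of the lost sites, -0.069 for MCPH1 upstream, -0.084 for 10 to 50 kb upstream and -0.053 for 50 to 100 kb upstream, and omitting 1 library gave -0.031 to 0.12, -0.068 to 0.090, -0.10 to 0.10 and -0.011 to 0.11. For dTAG+I-BET against dTAG, omitting 1 library gave -0.079 to 0.075 for the gained window, -0.080 to 0.0026 for 200 to 500 kb downstream and -0.073 to 0.15 for the lost site at 78.2 kb, where equal totals gave -0.13 and edgeR -0.00018.

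Of 831 values recomputed, 752 kept direction and side of the threshold or count. The replicate numbers did not pair the libraries as a set: same-numbered libraries of different groups correlated above 0.1 in 2 of 9 pairs (r = -0.064 to 0.23). The highest r of all pairs, 0.23, was that of DMSO replicate 3 with dTAG replicate 3. Over the ANGPT2 bins, the chi-square per bin between them was 1.78. Between dTAG replicate 3 and DMSO replicates 1 and 2 it was 2.39 and 2.37. DMSO replicate 3 and dTAG replicate 3 also had the highest ANGPT2 signal from 1000 to 5000 kb, 13.6 and 16.1 per kb against 10.6 to 12.3 in the other libraries. The same libraries were highest at the other viewpoints too, such as MYC (29.1 and 33.8 against 20.8 to 24.2) and PCDH7 (28.9 and 33.9 against 18.4 to 22.7). The replicate block changed no call of the ratio, the bins or the lost windows.

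Depth limits what can be seen. The median over the 98 bins of the lowest number of interactions in a library was 16, dTAG replicate 3 held 14688 on the chromosome, and each group had 3 libraries.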
